A study of Mus musculus with 14 samples.

Results

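RNA-seq of the dorsal hippocampus was used to ask which genes differ between WT mice that had just been trained in a spatial task and WT mice left in their home cage. The trained group (labelled WT_train, 2 libraries) had 3 days of training in the Morris water maze, in which a mouse learns where a hidden platform lies, and was killed 1 h after the last trial. The home-cage group (labelled WT_HC, 3 libraries) was not trained. Both groups were male WT mice aged 8 months, labelled C57BL6 and bred, per the study's methods, on a C57BL6/J background, and all had received saline in 3 injections, 1 per week, so the controls carry the injections too. These 5 libraries were chosen by their labels from the 14 of the series, and every gene with enough reads was compared. The study's methods speak of each library as 1 mouse. Swimming, handling and exposure to the pool came with the training, and this comparison cannot tell them apart from learning. The same table also holds 4 libraries of trained THY-Tau22 mice, which express mutated human Tau in neurons under a Thy1 promoter. Of these, 2 received the carrier CSP (label C) and 2 the acetyltransferase activator CSP-TTK21 (label T). They shared the fit across all genes and are used below only where their values bear on the WT groups. The authors had left out 3 libraries of this experiment after inspecting the data, because of great variability, and the 3 mice came from the same litter. The study's methods give 3 libraries per group, so a trained WT library was among those left out. The spread among the libraries kept may therefore be smaller than among all.

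Neuronal firing lets calcium into the cell and activates the ERK and cAMP pathways. Within minutes the transcription factors SRF and CREB then switch on immediate early genes without new protein synthesis. Some of these encode transcription factors (the Fos and Jun partners of AP-1, the Egr and Nr4a families), others encode phosphatases that shut the signal down again, and others, such as Arc and Homer1, act at the synapse. The choroid plexus is a different tissue. It is an epithelium in the ventricles that secretes cerebrospinal fluid, it lies against the hippocampus, and it can come along in a dissection. Its genes are hardly used by neurons, so that even a small amount shows. In bulk RNA, more cells of a type and more RNA per cell cannot be told apart.

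The promoters of several early genes that rose are shown because they carry the letters that CREB and SRF read, next to promoters of 2 choroid plexus genes that rose by more but lack those letters in this window. Each sequence is the RefSeq window in GRCm38.p6 from 250 bases before to 50 bases after a gene start, a newer build than the mm9 build of the counts. Capitals mark the cAMP response element CRE (TGACGTCA), its core (TGACG, also part of each CRE) or the CArG box bound by SRF, searched on both strands.
Fos (chr12:85473640-85473939, plus strand): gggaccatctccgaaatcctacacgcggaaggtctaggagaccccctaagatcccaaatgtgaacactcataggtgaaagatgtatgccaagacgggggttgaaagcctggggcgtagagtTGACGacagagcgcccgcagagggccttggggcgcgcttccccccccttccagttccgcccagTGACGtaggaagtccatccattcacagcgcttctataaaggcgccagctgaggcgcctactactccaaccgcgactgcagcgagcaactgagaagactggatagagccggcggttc
Nr4a1 (chr15:101266596-101266895, plus strand): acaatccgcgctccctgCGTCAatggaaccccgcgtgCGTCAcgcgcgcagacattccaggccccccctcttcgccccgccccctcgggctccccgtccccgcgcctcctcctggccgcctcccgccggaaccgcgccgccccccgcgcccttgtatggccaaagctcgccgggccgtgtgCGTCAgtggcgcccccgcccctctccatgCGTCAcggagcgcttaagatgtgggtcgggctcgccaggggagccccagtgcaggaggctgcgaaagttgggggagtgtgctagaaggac
Arl4d (chr11:101665291-101665590, plus strand): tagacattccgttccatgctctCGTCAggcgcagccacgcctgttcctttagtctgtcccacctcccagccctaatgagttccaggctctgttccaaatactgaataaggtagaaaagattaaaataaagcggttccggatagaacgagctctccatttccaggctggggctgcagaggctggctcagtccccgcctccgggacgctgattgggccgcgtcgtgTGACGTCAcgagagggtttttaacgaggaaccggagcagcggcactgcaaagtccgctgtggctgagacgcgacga
Dusp1 (chr17:26508423-26508722, minus strand): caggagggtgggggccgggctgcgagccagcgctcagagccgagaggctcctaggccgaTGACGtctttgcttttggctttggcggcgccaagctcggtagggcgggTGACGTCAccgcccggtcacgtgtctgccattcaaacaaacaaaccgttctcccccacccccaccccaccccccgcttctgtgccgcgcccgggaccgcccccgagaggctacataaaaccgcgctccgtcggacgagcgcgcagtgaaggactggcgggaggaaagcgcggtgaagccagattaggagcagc
Dusp5 (chr19:53528895-53529194, plus strand): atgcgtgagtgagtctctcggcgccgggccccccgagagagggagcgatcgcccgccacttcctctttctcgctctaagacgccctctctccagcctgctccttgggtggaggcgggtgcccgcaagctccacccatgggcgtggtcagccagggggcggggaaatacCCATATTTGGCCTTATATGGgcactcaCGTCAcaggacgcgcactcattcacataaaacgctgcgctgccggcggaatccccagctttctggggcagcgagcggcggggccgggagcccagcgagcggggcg
Egr2 (chr10:67537619-67537918, plus strand): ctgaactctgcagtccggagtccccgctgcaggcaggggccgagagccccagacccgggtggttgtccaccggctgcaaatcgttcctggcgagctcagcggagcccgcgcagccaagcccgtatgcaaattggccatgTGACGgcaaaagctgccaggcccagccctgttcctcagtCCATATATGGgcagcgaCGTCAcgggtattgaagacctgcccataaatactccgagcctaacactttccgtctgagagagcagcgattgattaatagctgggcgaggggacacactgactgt
Cldn2 (chrX:139800558-139800857, plus strand): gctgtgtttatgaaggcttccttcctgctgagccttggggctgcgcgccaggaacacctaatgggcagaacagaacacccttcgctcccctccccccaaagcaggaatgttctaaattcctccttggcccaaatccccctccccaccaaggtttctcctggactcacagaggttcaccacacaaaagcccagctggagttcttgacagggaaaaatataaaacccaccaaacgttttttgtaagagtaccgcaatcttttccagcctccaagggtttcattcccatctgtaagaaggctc
Tmem72 (chr6:116716709-116717008, minus strand): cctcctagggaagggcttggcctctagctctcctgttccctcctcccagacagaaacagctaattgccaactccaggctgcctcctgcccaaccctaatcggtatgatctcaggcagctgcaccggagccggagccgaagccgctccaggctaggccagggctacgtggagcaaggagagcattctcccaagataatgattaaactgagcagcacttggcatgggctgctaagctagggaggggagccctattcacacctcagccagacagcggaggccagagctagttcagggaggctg

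Fos and Nr4a1 hold 2 and 4 cores, and Arl4d and Dusp1 each hold a whole CRE. Beside the core, Dusp5 holds 2 CArG boxes and Egr2 holds 1. The Egr2 window was picked by requiring both the core and a CArG box, so that it holds both is no result. Among the 46 windows found for 29 of the 36 activity-regulated genes called higher below, 60.9% held the core, 10.9% a whole CRE and 10.9% a CArG box, and the 5 windows with a CArG box belonged to only 2 genes. In the 78 windows of activity-list genes that were not called higher these shares were 39.7%, 8.97% and 3.85%. Among the 21 windows of the choroid plexus markers 5 held the core (23.8%), and the CRE and the CArG box were in none. The 14356 windows of genes tested here gave 28.4%, 2.83% and 1.35%, and all 32851 windows of the table gave 20.8%, 1.79% and 1.63%. The letters TAATCC, read by Otx factors, were in 9.52% of the marker windows, 5.59% of those of genes tested and 7.06% of all windows. The windows also differed in base composition, with a median GC content of 62.5% in both activity groups, 51.3% in the choroid plexus markers, 60.3% in genes tested and 52.7% in all windows, and the part of GC content in these shares was not tested. Several windows of a gene can overlap, and a match is no evidence of binding.

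In all, 16820 genes were tested with edgeR's quasi-likelihood test. A gene was called where its adjusted p (Benjamini-Hochberg over all genes) lay below 0.05 and its log2 fold change was past 0.2 in either direction, with fold changes given as trained minus home cage. Of these genes 1413 (8.4%) were called, 900 higher (5.35%) and 513 lower (3.05%). With the 5 WT libraries alone in the fit, which leaves out the spread estimated from the THY-Tau22 libraries, 310 were called (234 higher and 76 lower). The libraries held 39319097 to 52180305 counts in the WT groups. Replicates differed by 9.64 to 27.1 times what counting error alone gives (chi-square per degree of freedom), so the spread between mice outweighs the depth. Values are given as CPM, read counts divided by library size with TMM scaling. The 2 trained libraries lay wholly above or below the 3 home-cage libraries for 43.8% of all genes tested, so such a separation alone says little. The count of calls rested strongly on single libraries. It was 73 without trained replicate 1, 282 without trained replicate 2, 614 without home-cage replicate 1 and 2798 without home-cage replicate 3. Library composition also moved with the groups. A gene's GC content and its deviation in a library from the average of the 9 libraries had a Spearman's rho, across genes, of 0.08 and 0.28 for the trained and 0.41 to 0.45 for the home-cage libraries. The median GC content was 44.8% for genes called higher, 53.1% for genes called lower and 50.0% for all genes. With a correction for GC and length 743 genes were called (4.42%), 495 higher (2.94%) and 248 lower (1.47%). Of these 743, 630 were among the 1413. DESeq2 called 1111 genes higher (8.31%) and 734 lower (5.49%) of the 13363 it gave an adjusted p.

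Some immediate early genes were higher in the trained than in the home-cage libraries, while most list members were not called. In untrained resting WT mice of a separate experiment, Fos, Egr1, Egr2, Junb, Nr4a1, Arc, Arl4d and Dusp5 also lay above the home-cage libraries. Those values are given at the end. Over 6 lists of activity-regulated genes, 127 of 128 members passed the filter on low counts, 36 were called higher (28.3%, against 5.35% of all genes), 3 were called lower (2.36%, against 3.05%) and 88 were not called. The median log2 fold change of the members was 0.18, while that of all genes tested was -0.0028. With the GC and length correction 34 were called higher, not all of them among the 36, and 1 lower. The 1 lower was Kcnj2, which was not called without the correction. With the 5 WT libraries alone in the fit 23 were called higher. Without trained replicate 1 the number called higher was 14, and without trained replicate 2 it was 20. Of the 36, 12 were called whichever of the 5 libraries was left out, namely Fos, Junb, Egr1, Egr2, Egr4, Nr4a1, Dusp5, Dusp6, Sik1, Arc, Arl4d and Tiparp.

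Among the AP-1 and Npas4 factors 6 of 12 members tested rose. Fos (ENSMUSG00000021250, chromosome 12 of mm9, 86814840 to 86818223), the classical early gene and the partner of Jun proteins in AP-1, stood at 21.3 and 17.1 CPM in the trained libraries and at 5.11, 5.30 and 3.97 CPM in the home-cage libraries. The lowest trained library was thus more than 3 times the highest home-cage library, and the mean rose 4.002-fold (log2 fold change 2.00, standard error 0.13, adjusted p = 2.31e-05, edgeR). Junb, another AP-1 subunit, doubled with very little spread. It had 91.1 and 92.5 CPM after training and 47.7, 46.0 and 44.0 CPM in the home cage (log2 fold change 1.001). Fosb (0.88), Npas4 (0.88), an early gene largely restricted to neurons, and Atf3 (1.06), a stress-induced factor, rose as well, and Maff (0.83) lay near the limit with an adjusted p = 0.0452 (edgeR). Without trained replicate 1 the calls of Fosb, Npas4, Atf3 and Maff were lost, and without trained replicate 2 those of Npas4, Atf3 and Maff (Maff also without home-cage replicates 1 or 3). The family did not move as a block. Jun had 98.1 and 108 CPM after training and 116, 150 and 132 CPM in the home cage (log2 fold change -0.37, adjusted p = 0.0615, edgeR), and Fosl2 was at 74.4 and 65.1 against 38.7, 62.8 and 48.5 CPM (adjusted p = 0.065, edgeR).

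Egr2 gave the largest relative rise of any activity-regulated gene. This zinc finger factor (ENSMUSG00000037868, chromosome 10 of mm9, 66998223 to 67004936) was almost silent in the home cage at 0.788, 0.765 and 0.737 CPM and stood at 9.57 and 6.83 CPM after training. The 3 home-cage mice hardly differed from one another, and the mean rose 10.7-fold (log2 fold change 3.42, standard error 0.19, adjusted p = 1.24e-05, edgeR). Egr1, the most used neuronal activity reporter of the family, had 398 and 285 CPM against 150, 130 and 161 CPM (log2 fold change 1.22), and Egr4 had 75.8 and 57.2 CPM against 33.4, 29.4 and 36.2 CPM (1.01). Trained replicate 1 was the higher trained library for all 3 genes. Egr3 and the corepressors Nab1 and Nab2, which restrain Egr proteins, were not called, with log2 fold changes of -0.11, 0.36 and 0.17.

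Of the Nr4a orphan nuclear receptors, which CREB drives and which are tied to memory consolidation, Nr4a1 and Nr4a2 rose. Nr4a1 was at 136 and 123 CPM after training and at 62.1, 53.6 and 54.8 CPM in the home cage, a 2.28-fold rise (log2 fold change 1.19, standard error 0.10, adjusted p = 8.49e-05, edgeR). Nr4a2 had 77.0 and 59.1 CPM against 47.5, 47.5 and 43.7 CPM (log2 fold change 0.56), and its call was lost without trained replicate 1. Nr4a3 had 142 and 129 CPM against 135, 137 and 117 CPM, and its libraries overlapped. Among 27 other early regulators 5 rose, all by modest amounts, with log2 fold changes of 0.29 for Csrnp1, 0.38 for Klf10, 0.49 for Sertad1, 0.53 for the repressor Bhlhe40 and 0.55 for Id1. None of these 5 kept its call when trained replicate 1 was left out, and only Bhlhe40 kept it without trained replicate 2 or home-cage replicate 1. The values of Egr1, Jun, Nab2 and Bhlhe40 are uncertain, since other annotated genes overlap their exons and the kit did not mark strand.

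**Figure D1:**
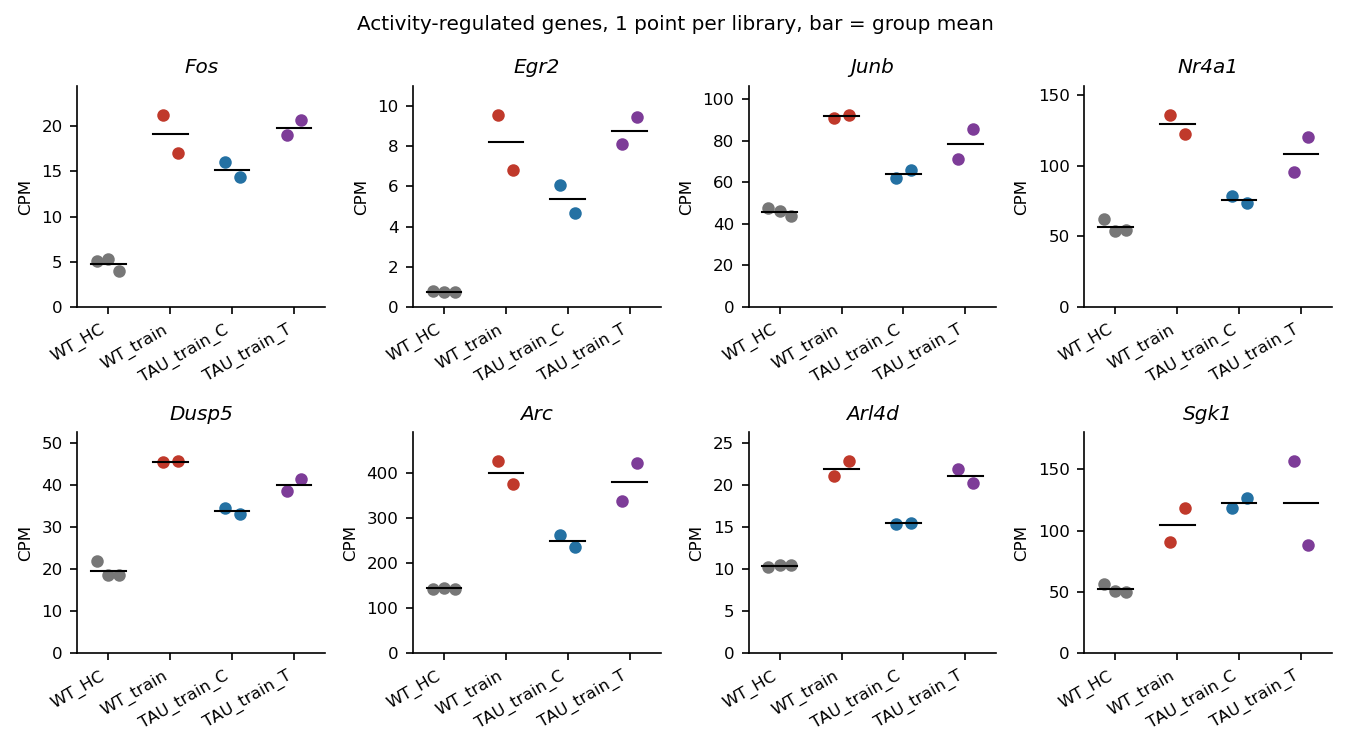
CPM of 8 activity-regulated genes in the 9 libraries of the learning experiment, with 1 point per library, a bar at the group mean and a linear axis from 0. In each panel both trained WT libraries lie above the 3 home-cage libraries, and for Fos, Egr2 and Arc the trained WT mean is at least 2.78 times the home-cage mean.

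Some brakes of ERK and stress signalling rose too, with 10 of 31 members higher (32.3%, against 5.35% of all genes), 0 lower and 21 not called. The strongest was Dusp5, a nuclear phosphatase that inactivates ERK, with 45.4 and 45.6 CPM after training and 22.0, 18.5 and 18.5 CPM in the home cage. It rose 2.32-fold (log2 fold change 1.21, standard error 0.08, adjusted p = 2.54e-05, edgeR), and the trained mice were almost equal. Dusp6, the cytoplasmic ERK phosphatase, had 79.9 and 71.9 CPM against 52.0, 44.0 and 43.1 CPM (0.71). Sik1, a kinase induced by CREB that in turn restrains CREB coactivators, had 18.3 and 14.7 CPM against 7.58, 8.98 and 8.58 CPM (0.97). The other 7 were the broad MAP kinase phosphatase Dusp1 (0.49), the Ras-ERK inhibitor Spred1 (0.43), the EGF receptor inhibitor Errfi1 (0.54), the pseudokinases Trib1 (0.51) and Trib2 (0.32), the NF-kB inhibitor Nfkbia (0.49) and Gadd45b (0.46). Dusp1 lost its call without trained replicate 2 and the other 6 without replicate 1. Trib1, Trib2, Nfkbia and Gadd45b also lost it without replicate 2, and the last 3 of these without home-cage replicate 1. No member of the Sprouty family was called.

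Synaptic and secreted effectors were mixed. Of 48 members 10 rose (20.8%, against 5.35% of all genes) and 3 fell (6.25%, against 3.05%). Arc (ENSMUSG00000022602, chromosome 15 of mm9, 74499513 to 74503000), whose product removes AMPA receptors from synapses, had 427 and 375 CPM after training and 144, 146 and 143 CPM in the home cage. The home-cage mice differed by only 1.60 CPM (SD, n = 3), and the mean rose 2.78-fold (log2 fold change 1.47, standard error 0.09, adjusted p = 1.64e-05, edgeR). The small GTPase Arl4d was nearly as tight, with 21.0 and 22.8 CPM against 10.2, 10.5 and 10.5 CPM (1.07). Sgk1, a kinase induced by both glucocorticoids and activity, had 90.7 and 119 CPM against 56.7, 50.9 and 49.8 CPM (log2 fold change 0.996, adjusted p = 0.0127, edgeR), and its call was lost without either trained library. Tiparp, an ADP-ribosyltransferase (0.82), Gpr3 (0.56), Arl5b (0.49), Olfml2b (0.48), the synaptic scaffold Homer1 (0.47), Midn (0.42) and Rheb, the GTPase that activates mTOR (0.36), were the other rises. Of these 7, Tiparp kept its call without any 1 library, Olfml2b lost it without trained replicate 2, and the others lost it without trained replicate 1 (Gpr3 and Rheb also without replicate 2, Midn and Rheb without home-cage replicate 1, Rheb without home-cage replicate 2). Tiparp and Gpr3 overlap other annotated genes and are uncertain. All exons of a gene are counted together, so the short activity-induced form of Homer1 was not separated from the long one. The falls were Nptxr (-0.69) and Nptx1 (-0.34), which encode neuronal pentraxins that cluster AMPA receptors, and the protocadherin Pcdh8 (-0.35). All of these calls were lost without either trained library, and also with the GC and length correction. Nptxr was also lost without home-cage replicate 3, Nptx1 without home-cage replicate 2 and Pcdh8 without either of these. Nptxr shares exons with Npcd and is uncertain. Bdnf, the best known secreted effector, had 39.6 and 39.3 CPM against 35.6, 34.8 and 39.8 CPM and was not called (log2 fold change 0.10, adjusted p = 0.56, edgeR).

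Some members of stress, clock and cholesterol lists rose, while most members of each were not called. The shares called higher were 36% (glucocorticoid), 22.7% (clock), 45.8% (endoplasmic reticulum), 26.9% (heat shock) and 12.5% (cholesterol), against 5.35% of all genes tested. The shares called lower were 4% (glucocorticoid) and 4.55% (clock), against 3.05%. No test was run on a list. Of 25 glucocorticoid receptors and responsive genes 9 rose and 1 fell, with Tsc22d3 (Gilz), a direct target of the glucocorticoid receptor, at 61.1 and 59.9 CPM after training and at 34.1, 30.0 and 32.2 CPM in the home cage (log2 fold change 0.91, standard error 0.08, adjusted p = 0.000164, edgeR). Hif3a rose too (0.92), with its call lost without either trained library. Of its rises, the list shares Sgk1, Arl4d, Errfi1 and Nfkbia with the activity lists and Per1 with the clock list. The member that fell, named after its values were seen, was the mineralocorticoid receptor Nr3c2 (-0.34). Of 22 clock genes 5 rose and 1 fell. Per1, which both glucocorticoids and CREB can induce, had 181 and 149 CPM against 87.4, 89.6 and 106 CPM (0.81), Per2 had 59.3 and 54.3 CPM against 38.4, 32.8 and 35.0 CPM (0.68), and Nr1d2 rose by 0.59. Bhlhe40 is the fourth, and the core clock partners, named after their values were seen, went in opposite directions, Clock at 0.30 and Arntl (Bmal1) at -0.29. Nr3c2, Clock and Arntl lost their calls without either trained library or home-cage replicate 1. Per the study's methods, the time of death was randomised over the groups within the same part of the morning. Among 24 endoplasmic reticulum chaperones and stress genes 11 rose and 0 fell, each by less than 0.54 on the log2 scale. Hspa5 (BiP), the main chaperone there, had 214 and 187 CPM against 132, 134 and 151 CPM (0.53), and Xbp1, a factor of the unfolded protein response, had 77.3 and 73.2 CPM against 55.1, 53.8 and 57.2 CPM (0.44). Without trained replicate 1 the calls of Per2, Hspa5 and Xbp1 were lost. With the GC and length correction 6 members of that list rose. Of 26 cytosolic heat shock genes 7 rose, the largest of them Chordc1 (0.49), Dnajb1 (0.45), Hspb8 (0.44) and Hsp90aa1 (0.36). With the correction 4 of the 26 rose, a count over the whole list and not over the genes named. All 4 named lost their call without trained replicate 1, and all but Dnajb1 also without trained replicate 2 or home-cage replicate 1. In cholesterol synthesis 3 of 24 members rose, with Cyp51 at 0.46, Sc4mol at 0.44 and Sc5d at 0.28, none of which kept its call without trained replicate 1. Sc5d also lost it without trained replicate 2 or home-cage replicates 1 or 2.

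**Figure D2:**
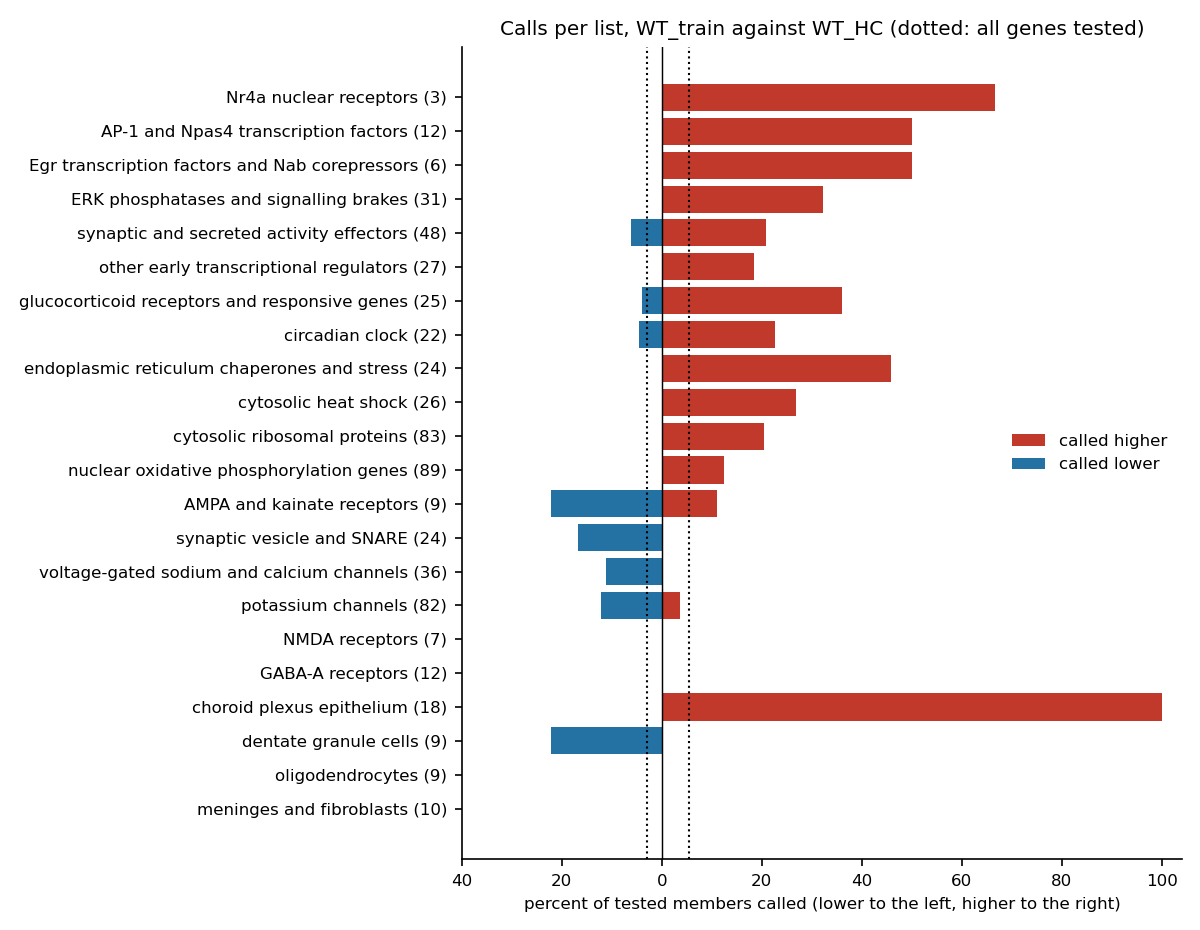
Percent of the tested members of each list that were called higher (red, to the right) or lower (blue, to the left) in trained against home-cage WT mice, with the number of members tested in brackets and dotted lines at the 5.35% higher and 3.05% lower of all genes tested. The choroid plexus list reaches 100%, the early gene families lie between 18.5% and 66.7% higher, and the AMPA and kainate, vesicle and channel lists had more members lower than higher.

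Genes called lower were changed by less than genes called higher. The 12 largest decreases of well-measured genes ran from -1.21 to -0.78 on the log2 scale. They began with Heyl, a Notch target, at 2.83 and 2.62 CPM after training and at 5.29, 8.25 and 5.37 CPM in the home cage. They went on with the keratin Krt2 (-1.12), the collagen Col22a1 (-1.10), the phospholipase Pla2g4e (-1.08), Otof, a calcium sensor of vesicle release (-1.01), Ntn5 (-0.99), the neuronal factor Nhlh1 (-0.94), Wnt9a (-0.84), Prrt4 (-0.83), Atp2b4, a calcium pump of the plasma membrane (-0.83), Vwa3b (-0.80) and the integrin Itga11 (-0.78). Atp2b4 was the best supported, with 56.3 and 58.0 CPM against 89.3, 109 and 105 CPM (standard error 0.10, adjusted p = 0.000868, edgeR), and it was the only one of the 12 whose call survived leaving out each library. Without trained replicate 1 the other 11 were lost, without trained replicate 2 all of these but Otof were lost, and without home-cage replicates 2 or 3 Nhlh1 and Prrt4 were lost as well.

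Among lists of receptors, vesicle proteins and channels most members were not called. The counts of lower members below stand beside 3.05% for all genes tested, and no test was run on a list. Of 9 AMPA and kainate receptor genes the kainate subunits Grik3 (-0.64) and Grik4 (-0.47) fell and the AMPA subunit Gria2 rose (0.27). The metabotropic glutamate receptor Grm7 fell, with 31.9 and 33.3 CPM after training and 38.6, 38.9 and 38.1 CPM in the home cage (log2 fold change -0.24, standard error 0.06, adjusted p = 0.04, edgeR). Of 24 synaptic vesicle and SNARE genes 4 fell and 0 rose, namely Sv2c (-0.66), Syn2 (-0.39), the complexin Cplx2 (-0.34) and the priming factor Unc13a (-0.30). Unc13a had 509 and 515 CPM against 628, 625 and 634 CPM, a small difference between groups that each varied little. Of 36 sodium and calcium channel genes 4 fell, all of them calcium channel pore subunits, Cacna1c (-0.47), Cacna1e (-0.40), Cacna1b (-0.37) and Cacna1d (-0.35). Of 82 potassium channel genes 10 fell, among them Kcns1 (-0.55) and Kcna4 (-0.50), and 3 rose, of which Kcne2 and Kcnj13 are choroid plexus markers and Kcnk1 (0.34) was named after its values were seen. The neurotrophin receptor Ntrk3 (-0.44) and the sorting receptor Sort1 (-0.25) also fell. Among NMDA receptors 0 of 7, and among GABA-A receptors 0 of 12, were called. Single libraries decided these calls. Grik3 lost its call without trained replicate 2, and every other gene named here as falling lost it without trained replicate 1. Of the latter, Syn2, Cacna1b, Grik4 and Kcns1 kept it without replicate 2. Without home-cage replicate 1 it was lost by Grik4, Grm7, Cacna1d, Kcns1 and Sort1, and without home-cage replicate 2 by Grik4, Grm7, Cplx2, Kcns1 and Sort1. Gria2 and Kcnk1 lost their rise without either trained library or home-cage replicate 1. With the GC and length correction 1 of the 4 vesicle genes, 3 of the 4 channel pore subunits and 1 of the 2 kainate subunits were still called lower. The rise of Gria2 was no longer called with that correction.

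**Figure D3:**
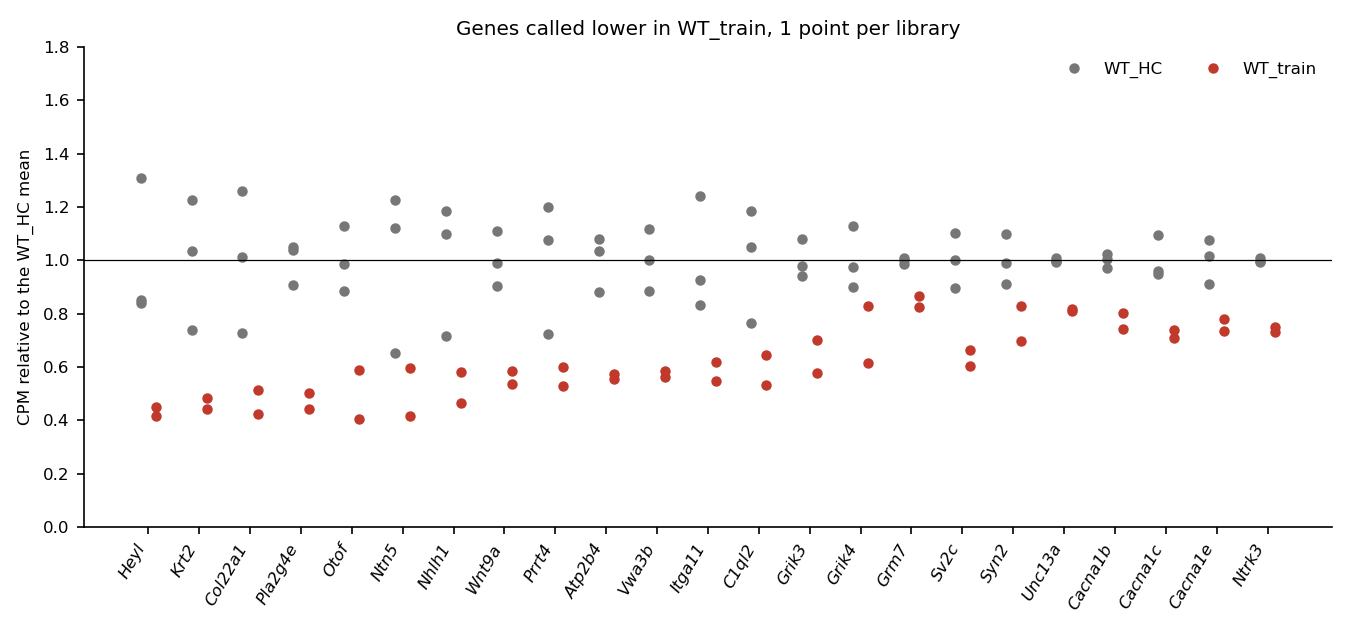
CPM of 23 genes called lower, divided by the mean of the 3 home-cage WT libraries, with 1 point per library on a linear axis from 0. The trained libraries (red) lie below the home-cage libraries (grey) for each gene, with a narrow home-cage spread for Unc13a, Grm7 and Ntrk3 and a wide one for Heyl, Ntn5 and C1ql2.

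By size, the largest increases were in choroid plexus genes. All 18 markers of the list were called higher, with log2 fold changes from 2.04 to 4.84 and a median of 3.49, and 10 of the 12 largest increases among well-measured genes were markers. The other 2 were Egr2 and the collagen Col8a1 (3.01). Ttr, the thyroid hormone carrier transthyretin and the most abundant transcript of this epithelium, had 2117 and 1352 CPM in the trained libraries and 31.5, 37.1 and 166 CPM in the home-cage libraries (log2 fold change 4.47, standard error 0.56, adjusted p = 0.00147, edgeR). Kcne2 (ENSMUSG00000039672, chromosome 16 of mm9, 92292634 to 92298374), a potassium channel subunit of the epithelium, had 10.6 and 6.91 CPM against 0.153, 0.161 and 0.585 CPM (4.84). The water channel Aqp1 had 23.3 and 12.9 CPM against 0.686, 0.785 and 2.08 CPM (3.92), the folate receptor Folr1 17.0 and 13.3 CPM against 1.70, 0.403 and 2.56 CPM (3.30), the tight junction protein Cldn2 11.5 and 6.14 CPM against 0.356, 0.544 and 1.11 CPM (3.70), and the homeobox factor Otx2 9.33 and 6.59 CPM against 1.04, 0.846 and 2.30 CPM (2.51). No marker was at 0 in any library. Ttr, Mfrp, Kcnj13, Prlr and F5 overlap other annotated genes and are uncertain. Calml4 lost its call without trained replicate 1, and Slco1a5, a transporter below 0.34 CPM throughout, lost it without either trained library or home-cage replicates 1 or 2.

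Together the 18 markers took 0.235% and 0.149% of all counts in the trained libraries and 0.00528%, 0.00528% and 0.0196% in the home-cage libraries. The mean share was 0.192% ± 0.0608 (SD, n = 2) after training and 0.0101% ± 0.00828 (SD, n = 3) in the home cage. An exact two-sided permutation test over the 10 possible splits gave p = 0.1, which is the smallest p this design allows. Without Ttr the difference in the mean share was 0.022 percentage points in place of 0.182. Kl, which encodes the anti-ageing factor klotho and is named by the study, is strongly expressed in this epithelium. It had 107 and 86.9 CPM after training and 32.9, 29.5 and 38.5 CPM in the home cage (log2 fold change 1.53, standard error 0.11, adjusted p = 3.9e-05, edgeR). Other genes that rose, picked after their values were seen, were Enpp2, which makes lysophosphatidic acid, with 697 and 602 CPM against 141, 80.4 and 178 CPM (2.29), the transporter Abca4 (2.80), the sulfatase Sulf1 (2.28), the peptidase Ace (1.88) and the insulin-like growth factor binding protein Igfbp2 (1.12), whose call was lost without trained replicate 1.

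**Figure D4:**
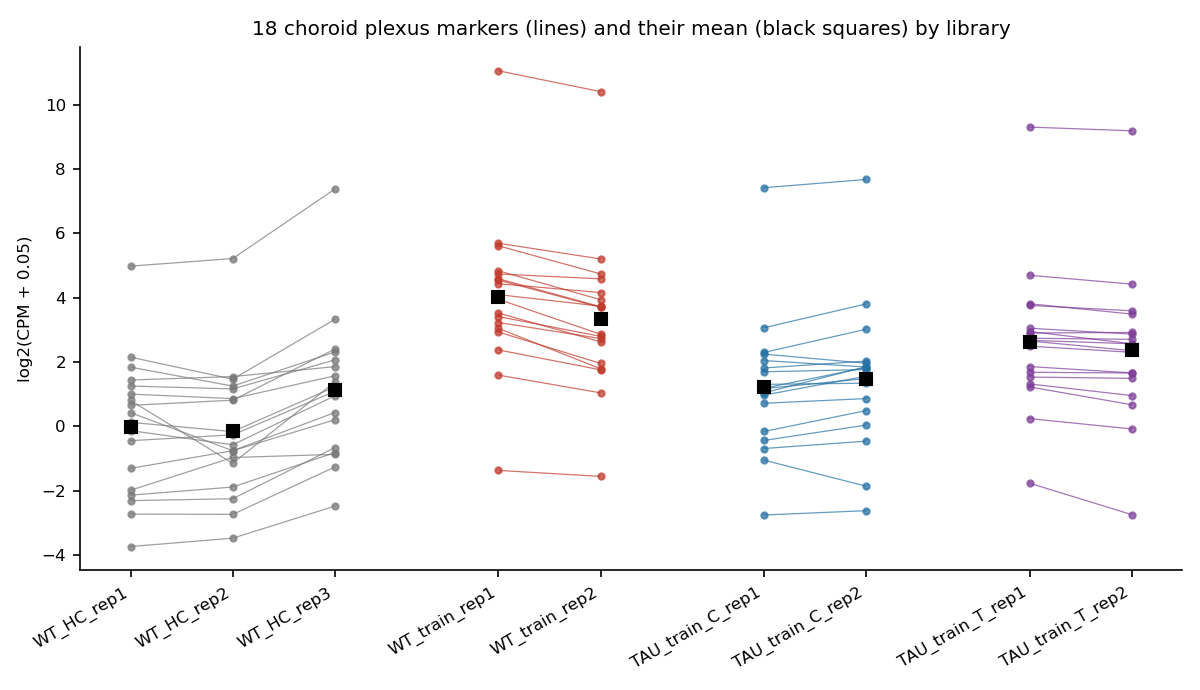
Level of each of the 18 choroid plexus markers in the 9 libraries of the learning experiment as log2(CPM + 0.05), with lines joining a marker's values within a group and black squares at the mean of the markers. The markers shift together from library to library, with means of 4.02 and 3.35 in trained WT, between -0.14 and 1.12 in home-cage WT, 1.22 and 1.48 in THY-Tau22 mice given CSP, and 2.62 and 2.37 in those given CSP-TTK21.

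Choroid plexus content varied within groups as well as between them, so the early genes can be set beside it from library to library. Each of the 18 markers was higher in trained replicate 1 than in replicate 2 (median ratio 1.55), each was highest in home-cage replicate 3 among the home-cage libraries, and 17 of the 18 were higher in both CSP-TTK21 than in both CSP libraries of trained THY-Tau22 mice. Of the 36 activity-regulated genes called higher, 23 were higher in trained replicate 1 (median ratio 1.09), 11 were highest in home-cage replicate 3 and 20 were higher in both CSP-TTK21 libraries. For all genes tested these counts were 8599, 6130 and 3611 of 16820. Home-cage replicate 3 had the highest Ttr of its group, 166 CPM, and the lowest Fos, 3.97 CPM. It also had the highest Egr1 of its group, 161 CPM, and the highest Egr4, 36.2 CPM, so single early genes went both ways. The trained THY-Tau22 mice given CSP had Ttr at 171 and 204 CPM, close to that library, but Fos at 16.01 and 14.4 CPM and Egr2 at 6.06 and 4.68 CPM, well above the home-cage WT values. These mice differ from the home-cage mice in genotype and injection as well as in training, so this comparison carries no test.

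To put numbers on this separation, the mean log2 CPM of the 18 markers in each library was added to the fit as a covariate. Each group had its own coefficient, so the slope on this score came from differences within groups. The score was 4.02 and 3.35 in the trained and -0.14 to 1.12 in the home-cage WT libraries, with no shared range. A group difference at equal choroid plexus content is therefore an extrapolation from a few libraries. The median standard error of the genes called higher was 0.28 in place of 0.09. With the covariate edgeR's quasi-likelihood test called 0 of 16820 genes (0%), and 729 (4.33%) had an unadjusted p under 0.05. DESeq2 was run without the covariate only and called 1845 genes. The estimates therefore carry no calls, and where an estimate is no larger than its standard error neither its direction nor its size is determined. Of the 36 activity-regulated genes called higher, 27 (75%) kept at least 50% of their log2 fold change, 6 kept less and 3 changed sign (Id1 at -0.08 ± 0.48, Rheb at -0.42 ± 0.23 and Midn at -0.22 ± 0.28, estimate ± standard error), and their median was 0.58 with the covariate and 0.56 without. Only 12 of the 36 had an unadjusted p under 0.05 (edgeR) in the same direction, as did 42 of the 900 genes called higher. Over all 127 activity-list members tested the median went from 0.18 to 0.09, with 0.69 to 0.33 in the Egr and Nab list and 0.14 to -0.02 in the effector list. Of all 900 genes called higher, 293 (32.6%) kept at least 50% and 354 changed sign, with a median of 0.08 in place of 0.42. The 513 genes called lower lay between, with 210 (40.9%) keeping at least 50%. For the markers themselves the median was 0.01, which their use in the score fixes.

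Among single genes, the estimate with the covariate, with its standard error after ±, was 2.52 ± 0.49 for Fos (2.00 without), 3.06 ± 0.76 for Egr2 (3.42), 1.52 ± 0.34 for Arc (1.47), 1.50 ± 0.28 for Dusp5 (1.21) and 1.32 ± 0.36 for Nr4a1 (1.19). It was 1.27 ± 0.28 for Junb (1.001), 1.10 ± 0.27 for Arl4d (1.07), 0.85 ± 0.32 for Dusp6 (0.71) and 1.24 ± 0.69 for Sgk1 (0.996). The estimates of other early genes were smaller, at 0.49 ± 0.48 for Egr1 (1.22 without), 0.39 ± 0.37 for Fosb (0.88), 0.58 ± 0.40 for Sik1 (0.97), 0.22 ± 0.33 for Egr4 (1.01), 0.23 ± 0.26 for Bhlhe40 (0.53), 0.21 ± 0.31 for Homer1 (0.47) and 0.03 ± 0.23 for Per1 (0.81), none of them larger than 1.5 times its standard error. Egr1 was higher in the trained WT library with more marker RNA (398 against 285 CPM) and in the THY-Tau22 libraries with more of it (281 and 313 CPM given CSP-TTK21 against 215 and 164 CPM given CSP). Within each THY-Tau22 group the order was reversed, with the higher Egr1 in the library with the lower marker share (0.0228% against 0.0280% given CSP, 0.0711% against 0.0788% given CSP-TTK21). CSP-TTK21 treatment and marker content cannot be told apart there. The glucocorticoid target Tsc22d3 was at 0.82 ± 0.30 (0.91 without), and the chaperone genes Hspa5, at 0.04 ± 0.26 (0.53), and Xbp1, at 0.17 ± 0.21 (0.44), were within their standard errors. Kl was at 0.50 ± 0.23 (1.53), Enpp2 at 0.37 ± 0.54 (2.29), Sulf1 at 0.24 ± 0.54 (2.28), Abca4 at 1.58 ± 0.48 (2.80) and Col8a1 at 2.41 ± 1.02 (3.01). Of the lower genes, Atp2b4 was at -0.86 ± 0.32 (-0.83) and Wnt9a at -1.35 ± 0.41 (-0.84). Less determined were Krt2 at -1.04 ± 0.60 (-1.12), Grik3 at -0.63 ± 0.38 (-0.64), Unc13a at -0.25 ± 0.19 (-0.30), Grik4 at 0.45 ± 0.29 (-0.47) and Otof at -0.03 ± 0.50 (-1.01).

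**Figure D5:**
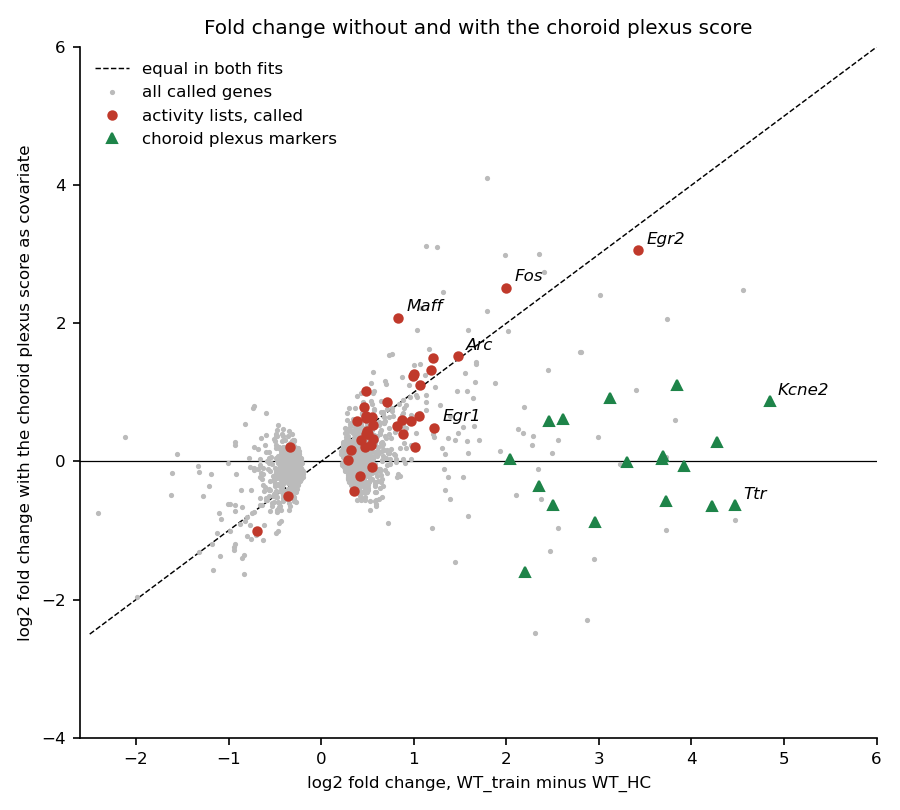
Log2 fold change of each called gene in trained against home-cage WT mice without (x axis) and with (y axis) the choroid plexus score as a covariate, for 1411 called genes with 2 outside the axes. Of the activity-list genes (red), Fos, Arc and Egr2 lie near the dashed line of equal values, Egr1 (0.49 on the y axis) lies below and Maff (2.08) above it, and 9 of the 36 called higher kept under 50% or changed sign, while the 18 markers (green triangles) lie between -1.61 and 1.11 on the y axis, which follows from their use in the score.

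Markers of other cell types moved little or unevenly. The counts of calls below stand beside 5.35% higher and 3.05% lower for all genes tested. None of the markers of ependyma (7 tested), meninges and fibroblasts (10), endothelium (10), oligodendrocytes (9), CA1 pyramidal cells (7), thalamus (8) or neocortex (8) was called in either direction. The summed level of the ependyma list was 50.3 and 51.1 CPM after training and 58.8, 24.9 and 50.5 CPM in the home cage. That of the meninges list was 216 and 176 CPM against 73.1, 263 and 103.5 CPM, above home-cage replicates 1 and 3 and below replicate 2, which also had the most endothelial RNA (356 CPM, against 221 to 268 CPM in the other 4 libraries). Other lists had 1 or 2 calls each, in microglia P2ry12 (0.53) and C1qc (0.39), in astrocytes S100b (0.43), in interneurons Vip (0.59) and Pvalb (0.51), in blood cells Hbb-b2 (1.13) and Hbb-b1 (0.84), near-identical genes that share reads, and in CA2 and CA3 cells Amigo2 (0.56) beside the falling Grik4. All of these rises were lost without either trained library. Of the dentate granule cell markers 2 of 9 fell, with C1ql2 at 128 and 154 CPM after training and 183, 283 and 251 CPM in the home cage (-0.76) and Trpc6 at -0.53, both lost without either trained library. The summed level of that list was 550 and 583 CPM after training and 592, 816 and 763 CPM in the home cage, and that of oligodendrocytes was 7783 and 7558 against 7952, 3933 and 7065 CPM. Home-cage replicate 2 thus held the most granule cell and the least oligodendrocyte RNA of the 5 libraries. The part of these contents in the calls was not tested.

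Lists of housekeeping genes differed. Of 83 cytosolic ribosomal protein genes 17 rose and 0 fell, with a median log2 fold change of 0.30, and of 89 nuclear oxidative phosphorylation genes 11 rose and 0 fell. These shares were 20.5% and 12.4% higher, against 5.35% of all genes, and with the GC and length correction 13 and 7 rose. Of 57 translation initiation factors 4 rose (7.02%), of 37 proteasome subunits 1 (2.7%) and of 36 mitochondrially encoded genes 1 (2.78%), and with the correction 0, 1 and 0. Of 75 splicing factors 6 rose (8%) and 9 fell (12%), and 2 and 7 with the correction. The summed ribosomal protein level was 6661 and 6650 CPM after training and 5177, 5052 and 6243 CPM in the home cage, so that home-cage replicate 3, the one with most choroid plexus RNA, lay nearest the trained libraries. With the choroid plexus covariate the median of these genes was -0.41. Among acetylation genes, Crebbp (62.9 and 55.2 against 56.4, 56.1 and 55.2 CPM) and Ep300 (100.4 and 94.0 against 90.4, 86.6 and 95.1 CPM), the acetyltransferases CBP and p300 that the study targets, were not called, Kat2b rose (0.63, lost without either trained library), and of 15 histone deacetylases 0 were called. Of the other genes the study names, Nts, Mvd, Cyp46a1, Kcnh3, Homer3 and Sv2b were not called, with log2 fold changes of 0.66, 0.10, -0.15, 0.03, -0.16 and -0.02. Nts was measured at only 1.31 to 3.21 CPM, and its trained libraries (3.21 and 1.72 CPM) overlapped the home-cage libraries. Of the other genes named above, Abca4, Ace, Amigo2, Cacna1d, Col22a1, Ep300, Gria2, Grm7, Homer3, Ntn5, Pla2g4e, Sort1 and Sv2b also overlap other annotated genes, and their values are uncertain in the same way.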

How the data were processed

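Dorsal hippocampal RNA of trained and home-cage WT mice was compared. Per the labels and the study's methods, the authors made poly-A libraries with a kit that does not mark strand, sequenced single-end reads, processed them with CASAVA 1.8.2, aligned them to mm9 with TopHat2 2.0.10 and Bowtie2 2.1.0, counted unique reads on Ensembl genes with HTSeq 0.5.4p3, and deposited raw counts for 25933 genes (138 further lines had no values and were left out). The authors also deposited a normalized signal, in which each library is divided by its own factor, and it was read only to check columns. Depth was 39319097 to 52180305 counts in the 5 WT libraries, and p-values rest on a spread estimated over all 9 learning libraries, the 4 of THY-Tau22 mice included.

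The 9 learning libraries were fitted together, 1 coefficient per group, with edgeR 4.0.16 (TMM, filterByExpr, quasi-likelihood F test, Benjamini-Hochberg) in R 4.3.3. Alternatives were DESeq2 1.42.0, its size factors, library size alone, no filter, the 5 WT libraries alone, a replicate block, a loess correction (span 0.3) for GC content and length from the mm9 genome with GENCODE annotation, the choroid plexus score (pseudocount 0.05) as a covariate, other fold limits, and leaving out each WT library. Scripts were tested on simulated data. Figures used Python 3.11.15 and matplotlib 3.10.9.

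The genes, lists and tests were chosen with earlier results of these data known. Named genes are members of the activity and choroid plexus lists, the 12 largest increases and the 12 largest decreases among called genes that averaged 100 or more normalized counts and whose groups did not overlap (unnamed gene models left out), genes the study names with Crebbp and Ep300, and up to 4 called members of each other list. Jun, Egr3 and other list members that were not called fall under the first part.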

Additional observations from a re-analysis of the deposited data

How the results depend on the processing

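With 2 trained mice, the limits are the single libraries and the overlap of training with choroid plexus and GC content. The calls (1413 genes, 900 higher and 513 lower, with 36 activity-regulated genes and 18 choroid plexus markers higher) stayed within 1.5 times with DESeq2, its size factors in edgeR, library size alone and no limit on the fold change. DESeq2 called 1845 (1111 higher and 734 lower, 40 and 16 in the 2 lists). Library size alone moved the share of higher among called genes from 63.7% to 74.7%.

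Without the low-count filter 2686 genes were called (1572 higher, 1114 lower). With the 5 WT libraries alone it was 310 (234 higher, 76 lower), with 23 activity-regulated genes. With the GC and length correction it was 743 (495 and 248), and with the choroid plexus covariate 0 in every count. Above an absolute log2 fold change of 1 it was 133 (111 and 22), with 10 activity-regulated genes. Leaving out 1 WT library gave 73 to 2798 calls, 70 to 1799 higher and 3 to 999 lower, 14 to 44 activity-regulated genes and 16 to 18 markers, and the difference in marker share ran from 0.139 to 0.225 percentage points with an exact permutation p of 0.25 to 0.33. Where this left 1 trained mouse, it was assumed to vary like the other groups. Apart from these constructions the causes were not tested.

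Replicate numbers 1 and 2 are shared by both groups, but the labels do not say that they pair mice, and the deviations of same-numbered libraries correlated at 0.01 and 0.07. With the replicate block 3000 genes were called (1892 higher and 1108 lower, 46 and 18 in the lists), and 1591 with the block and the GC and length correction.
Only the choroid plexus covariate turned the sign of called genes named here, with standard errors that often exceeded the estimate. Its log2 fold changes were -0.081 for Id1, 0.21 for Nptx1, -0.42 for Rheb, -0.22 for Midn, -0.63 for Ttr, -0.012 for Folr1, -0.061 for Aqp1, -0.63 for Otx2, -0.57 for Mfrp, -0.35 for Prlr, -1.61 for Slco1a5, -0.65 for Tmem72, 0.049 for Itga11, 0.45 for Grik4, 0.13 for Sort1, -0.11 for Kat2b, -0.18 for Hsp90aa1, -0.26 for Sc4mol, 0.31 for Syn2, 0.11 for Cplx2, -0.57 for P2ry12, -0.017 for C1qc, -0.56 for S100b, -0.30 for Vip, 0.012 for Cacna1e, -0.048 for Kcnk1 and 0.24 for Cacna1d.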

Other observations

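Untrained resting WT mice of the same age, sequenced in a separate experiment of the series whose table was normalized on its own, give a second set of untrained values for the early genes. Fos stood at 19.6, 23.5 and 17.0 CPM in these 3 libraries, near the trained WT value of 21.3 and 17.1 CPM and above the home-cage range of 3.97 to 5.30 CPM. Egr2 was at 5.31, 4.84 and 3.05 CPM, Arc at 293, 233 and 189 CPM, Junb at 81.0, 82.7 and 73.3 CPM, Nr4a1 at 84.0, 87.0 and 87.8 CPM and Dusp5 at 35.2, 30.7 and 32.0 CPM, each above all 3 home-cage libraries. Sgk1, at 68.8, 66.97 and 58.8 CPM, and Tsc22d3, at 41.5, 48.9 and 49.6 CPM, also lay above them and below the trained libraries. The 2 tables were normalized separately, so no test was run between them. The choroid plexus markers took 0.0318%, 0.0418% and 0.0256% of counts in these untrained WT libraries, and 0.0371% and 0.135% in the untrained THY-Tau22 libraries of the same experiment. Libraries of untrained mice thus also differed in this content.

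The decreases of the unnamed gene models Gm10800 and Gm16869 (picked after their values were seen) were absent from 1 home-cage library. Gm10800 had 0 CPM in home-cage replicate 1 and 34.3 and 46.2 CPM in replicates 2 and 3, against 0.0242 and 0 CPM after training, and Gm16869 had 0, 33.7 and 28.3 CPM against 0 and 0 CPM. They are the 2 called genes whose groups overlapped. Acer2, a ceramidase picked in the same way, had 7.42 and 8.18 CPM after training and 3.69, 4.41 and 2.99 CPM in the home cage, and its log2 fold change of 1.07 was 2.22 with the choroid plexus covariate.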
